A study of Mus musculus with 18 samples.

Results

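Differentiated knockout 3T3-L1 cells whose titles name MLKL (J7_MLKL, 3 libraries) were compared with differentiated control 3T3-L1 cells (J7_CTL, 3 libraries). These 6 libraries are 6 of the 18 in the study, and they were chosen by their titles. 3T3-L1 is an established mouse preadipocyte line, here measured by RNA sequencing of total RNA as undifferentiated cells (J0) and as differentiated cells (J7), each as control, MLKL-/- and RIPK3-/- cells with 3 libraries per group. The labels do not say how the genes were disrupted, which part of either gene was changed, whether a knockout line is 1 clone, or whether equal replicate numbers mark a shared culture, so the spread between replicates may be technical. For the 6 differentiated knockout libraries the genotype label names the other knockout than the title does, and the groups follow the titles. As a check of the titles, genes at least 8-fold apart between undifferentiated MLKL and RIPK3 cells were followed into the differentiated libraries. All 8 genes higher in J0_MLKL than in J0_RIPK3 were at least 2-fold higher in J7_MLKL than in J7_RIPK3, and all 8 lower genes were at least 2-fold lower, where the groups are those of the titles. At a 4-fold difference all 14 higher genes were at least 2-fold higher at J7, while of 22 lower genes 20 kept the direction and 18 were at least 2-fold lower.

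MLKL is the pseudokinase that carries out necroptosis, a lytic form of regulated cell death: the kinase RIPK3 phosphorylates MLKL, which then permeabilises the plasma membrane. When 3T3-L1 preadipocytes differentiate, the nuclear receptor PPARγ and the factor C/EBPα switch on genes for fatty acid uptake, lipid synthesis and storage, insulin-responsive glucose uptake and secreted adipokines. Genes of the fibroblastic precursor, among them collagens and contractile proteins, are reduced as the cells round up and fill with lipid. The comparison asks how knockout cells whose titles name MLKL differ from control cells once both have been taken through differentiation.

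Library totals were 24.1, 24.6 and 26.8 M assigned reads in J7_CTL and 25.9, 21.7 and 26.4 M in J7_MLKL. The deposited tables list only genes that passed the authors' own test in some comparison, and the genes with J7_MLKL counts hold between 53.5% and 54.5% of that group's reads. Counts in both groups could be joined for 7790 genes, of which 7288 come from the authors' table of this same comparison. Of the 7263 genes that passed the filter on low counts, 6893 were called at an adjusted p under 0.05 by edgeR's quasi-likelihood test, 94.9% of those tested. The calls split into 3522 higher genes (48.5%) and 3371 lower genes (46.4%), and the median log2 fold change was 0.17. Because the tables were already selected on this difference, these shares are a background against which to read the gene groups, and not a share of the transcriptome. The adjusted p-values, also those of the interaction below, were adjusted over such preselected genes only. They retest genes selected on the same counts and do not control errors over all genes measured. A list member can also be untested because its J7_MLKL counts were not listed. A count over tested members thus does not describe the whole list. The third J7_MLKL library stood apart from the other two: across 6054 genes the correlation of log2 CPM (counts per 1000000 assigned reads of the library) was 0.997 between J7_MLKL 1 and 2 but 0.948 and 0.946 between each of them and J7_MLKL 3, against 0.997 to 0.998 among the J7_CTL libraries. Between the groups it ran from 0.729 to 0.741. Some folds are also given without J7_MLKL 3, and all others include it. Where J7_MLKL 3 lies nearest the controls, the fold that includes it is the smaller one. Throughout, a fold is a ratio of pooled CPM, where the reads of a group are summed and divided by its summed library totals. A log2 fold change, with its standard error (SE), comes from edgeR after scaling between libraries.

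Mlkl itself (chr8:111311797-111338177 in mm10, minus strand) had 25.4, 27.5 and 26.1 CPM in J7_CTL and 13.9, 16.4 and 15.02 CPM in J7_MLKL. Its transcript was lower in every J7_MLKL library than in any control library but was not absent, at 1.75-fold below the controls (log2 fold change -0.70, SE 0.11, edgeR adjusted p = 0.00122). Counts cover the whole gene, so they do not show whether the altered part was transcribed. The undifferentiated groups had 18.9 ± 0.793 CPM in J0_CTL and 8.05 ± 1.45 CPM in J0_MLKL (SD, n = 3), and a test of whether the difference between the lines changed with differentiation missed the threshold (edgeR interaction, log2 0.39, SE 0.17, adjusted p = 0.0668). It passed with the authors' size factors (edgeR adjusted p = 0.0359) and without J0_MLKL 2 (0.00572). Ripk3, the kinase upstream of MLKL, had 17.5, 19.2 and 18.2 CPM in J7_CTL and 7.73, 7.97 and 11.99 CPM in J7_MLKL. It too was lower without overlap (log2 fold change -0.88, SE 0.20, edgeR adjusted p = 0.00509). Both target genes were thus lower in the libraries titled J7_MLKL. In J7_RIPK3 the means were 29.1 ± 2.94 CPM for Mlkl and 10.9 ± 0.750 CPM for Ripk3 (SD, n = 3). Before differentiation Ripk3 had 18.2 ± 1.40 CPM in J0_CTL, 7.45 ± 1.87 CPM in J0_MLKL and 15.9 ± 1.31 CPM in J0_RIPK3. Mlkl had 15.9 ± 1.62 CPM in J0_RIPK3. Whether these levels bear out the names of the lines was not tested.

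Of 16 genes of the necroptosis machinery, 10 were tested, 6 fell and 4 rose, all 10 without overlap of the groups, as for 6895 of all 7263 genes (94.9%). Beside Mlkl and Ripk3, Casp8, the protease that restrains necroptosis, fell 1.79-fold. Tnfrsf1a, the main TNF receptor, fell 1.56-fold (edgeR adjusted p = 0.0185), a call lost without J7_CTL 1 (0.0511), J7_MLKL 1 (0.064) or J7_MLKL 2 (0.057). The member with the largest rise was Zbp1, an interferon-inducible sensor of Z-form nucleic acid that can activate RIPK3, with 0.373, 0.325 and 0.261 CPM in J7_CTL and 3.17, 2.72 and 4.54 CPM in J7_MLKL. All 3 J7_MLKL libraries lay above the controls, 11.1-fold as a group (log2 fold change 3.53, SE 0.31). Birc3, an inhibitor of apoptosis downstream of TNF, and the double-stranded RNA receptor gene Tlr3 rose 1.92-fold and 1.84-fold.

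The transcription factors of the adipogenic programme were lower in J7_MLKL. Pparg (chr6:115360951-115490399, mm10) had 499, 487 and 488 CPM in J7_CTL and 57.1, 67.3 and 89.3 CPM in J7_MLKL. The groups lay far apart, 6.86-fold (log2 fold change -2.68, SE 0.18, edgeR adjusted p = 3.78e-05). In bulk RNA, fewer adipocytes and less of a transcript in each adipocyte cannot be told apart, here and in the adipocyte genes that follow. Cebpa, which maintains Pparg expression, had 415, 387 and 388 CPM in J7_CTL and 24.8, 35.3 and 47.2 CPM in J7_MLKL, a 11.04-fold fall. Nr1h3, encoding the oxysterol receptor LXRα, went from 135, 135 and 141 CPM in the control libraries to 15.4, 19.4 and 36.6 CPM, 5.69-fold lower. For all 3 factors the J7_MLKL 3 value was the highest of its group and still well under the controls. Of 19 listed adipogenic factors 13 were tested, of which 11 fell and 2 rose, with a median log2 fold change of -1.51. Klf15, a Krüppel-like factor induced late in adipogenesis, had the largest fall: 86.1, 80.7 and 87.3 CPM in J7_CTL against 1.70, 1.15 and 3.14 CPM in J7_MLKL, 41.3-fold. Ppargc1b, a coactivator of nuclear receptors, and Ebf2, an early B-cell factor that marks committed precursors, fell 5.73-fold and 5.18-fold. The 2 that rose were Ppargc1a, a coactivator of mitochondrial and thermogenic genes, at 3.40, 3.004 and 2.72 CPM in J7_CTL and 13.5, 12.7 and 6.32 CPM in J7_MLKL, and Klf5, an early adipogenic factor, 1.52-fold.

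**Figure D1:**
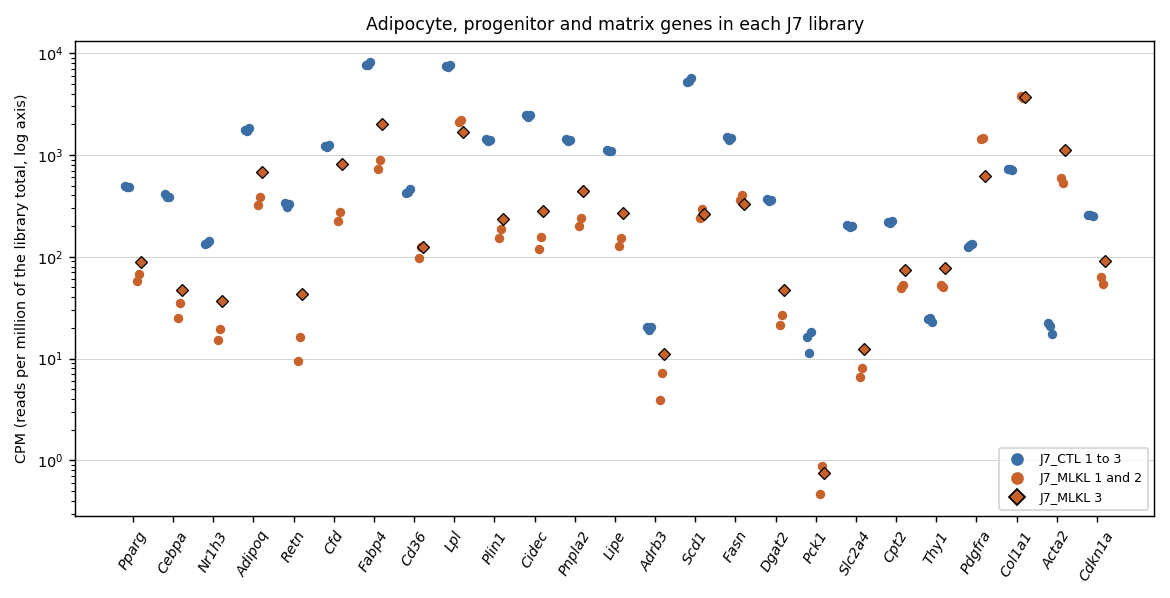
CPM in each of the 6 J7 libraries (log axis) for 25 genes of adipocyte function, progenitors, matrix and growth arrest, with J7_CTL in blue, J7_MLKL 1 and 2 in orange and J7_MLKL 3 as outlined diamonds. The adipocyte genes lie below the controls in every J7_MLKL library, from Pparg at 57.1 to 89.3 CPM against 487 to 499 down to Pck1 under 1 CPM, while Thy1, Pdgfra, Col1a1 and Acta2 lie above them.

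Secreted adipocyte products fell with these factors. Adipoq, encoding adiponectin, had 1740.1, 1704 and 1823 CPM in J7_CTL and 320.1, 384 and 684 CPM in J7_MLKL, 3.75-fold lower (log2 fold change -1.82, SE 0.29, edgeR adjusted p = 0.0012). It had no read in any J0_CTL or J0_MLKL library, so the J7_MLKL libraries held a transcript not detected before differentiation. Retn, encoding resistin, had 334, 307 and 326 CPM in J7_CTL and 9.50, 16.2 and 42.7 CPM in J7_MLKL, 13.8-fold lower with J7_MLKL 3 and 25.7-fold without it. Cfd, encoding the complement protease adipsin, had 1220.2, 1196 and 1246 CPM in J7_CTL and 225, 276 and 817 CPM in J7_MLKL. The third library lay between J7_MLKL 1 and 2 and the controls, so the fall was 2.71-fold with it (log2 fold change -1.37, SE 0.49, edgeR adjusted p = 0.03) and 4.92-fold without it. Without any 1 of the other 5 libraries the call for Cfd was lost (edgeR adjusted p from 0.059 to 0.0883). Lep, encoding leptin, was barely expressed in these cells at 1.62, 1.22 and 1.68 CPM in J7_CTL and 0.116, 0.921 and 0.681 CPM in J7_MLKL, and its difference missed the threshold (log2 fold change -1.31, SE 0.57, edgeR adjusted p = 0.061), although it passed without any 1 of the J7_MLKL libraries (0.00363 to 0.0464), with total reads only (0.0464), with DESeq2 (0.0364) and with all 3 J7 groups in 1 fit (0.0339). Of 13 tested members of the list of 16, 10 fell and 1 rose, with a median of -1.80. Apln, encoding the peptide apelin, fell 10.8-fold and Lcn2, the lipocalin, 6.99-fold, while Metrnl, a secreted meteorin-like factor, rose 2.35-fold. J7_MLKL 3 was the highest library of its group for 9 of these 13 genes.

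Fatty acid uptake and binding followed. Fabp4, the fatty acid-binding protein of adipocytes, had the largest drop in CPM of the protein-coding genes tested, from 7657, 7634 and 8109 CPM in J7_CTL to 723, 883 and 2018 CPM in J7_MLKL. J7_MLKL 3 held a higher level than its partners, and the fall was 6.34-fold with it and 9.82-fold without it. Lpl, the lipoprotein lipase that releases fatty acids from circulating triglyceride, had 7516, 7238 and 7549 CPM in J7_CTL and 2128, 2182 and 1685 CPM in J7_MLKL, 3.75-fold lower. Cd36, the fatty acid translocase, had 421, 429 and 459 CPM against 96.9, 125 and 124 CPM, 3.81-fold lower. The 3 J7_MLKL libraries agreed more closely for Lpl and Cd36 than for Fabp4. Acsl1, which couples imported fatty acids to coenzyme A, had the largest fold of the list, 13.7-fold, from 3481, 3263 and 3441 CPM to 231, 306 and 218 CPM. Of 13 tested members 11 fell and 1 rose. The gene that rose was Slc27a1, a fatty acid transporter, 1.16-fold (log2 fold change 0.31, SE 0.13, edgeR adjusted p = 0.0453), a small difference whose call was lost without a low-count filter (0.0704), with total reads only (0.137), with the authors' size factors (0.127), with DESeq2 (0.145) and without J7_CTL 1, 2 or 3 (0.146 to 0.164) or J7_MLKL 2 (0.0766).

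Genes of the lipid droplet coat showed the same direction, with 8 of 9 tested members lower and 1 higher. Plin1, perilipin 1, which gates access of lipases to the droplet, had 1422, 1362 and 1393 CPM in J7_CTL and 154, 189 and 236 CPM in J7_MLKL. Cidec, which enlarges droplets by fusing them, had 2455, 2368 and 2488 CPM against 118, 155 and 281 CPM. Neither overlapped, with falls of 7.20-fold for Plin1 and 13.1-fold for Cidec. Fitm2, which helps droplets bud from the endoplasmic reticulum, fell 5.63-fold. Cidea, a relative of Cidec that marks thermogenic adipocytes, fell from 2.11, 2.44 and 2.83 CPM to 0.0386, 0.0461 and 0.0757 CPM. Plin3, a perilipin found on nascent droplets in many cell types, was the member that rose, 1.54-fold.

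All 10 lipolysis enzymes and cofactors were tested and all 10 fell, with a median log2 fold change of -2.18. Pnpla2, encoding the lipase ATGL that removes the first fatty acid from triglyceride, had 1439.8, 1365 and 1403 CPM in J7_CTL and 199.8, 241 and 443 CPM in J7_MLKL. Lipe, encoding the hormone-sensitive lipase of the next step, had 1124, 1091 and 1101 CPM and 128, 151 and 268 CPM. J7_MLKL 3 again carried the highest level of its group for both, and the falls were 4.69-fold and 5.98-fold. Mgll, the monoacylglycerol lipase of the last step, had 29.5, 30.6 and 33.1 CPM in J7_CTL and 1.04, 1.70 and 0.719 CPM in J7_MLKL, a 27.8-fold fall. G0s2, an inhibitor of ATGL, fell 24.5-fold (41.4-fold without J7_MLKL 3), and Pde3b, the phosphodiesterase through which insulin restrains lipolysis, fell 4.91-fold, so inhibitors and enzymes of the pathway were both lower.

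Among receptors that control lipolysis, 7 of 9 tested members fell, none rose, and the median was -3.80. Ffar4, a receptor for long-chain fatty acids, had 21.3, 21.4 and 17.1 CPM in J7_CTL and no read in any J7_MLKL library, which with a floor of 3 reads over the group is at least 489.7-fold lower. Hcar2, the antilipolytic receptor for hydroxybutyrate, fell 30.2-fold, and Hcar1, the one for lactate, fell from 56.02, 52.04 and 52.02 CPM to 3.09, 3.73 and 3.86 CPM. Adrb3, the β3-adrenergic receptor, had 20.4, 19.2 and 20.2 CPM in J7_CTL and 3.94, 7.19 and 11.2 CPM in J7_MLKL, 2.67-fold lower (log2 fold change -1.32, SE 0.35, edgeR adjusted p = 0.00993). Adrb1, the β1-adrenergic receptor, was counted in 65 reads over J7_CTL and 2 reads over J7_MLKL, a ratio of 31.8 (95% counting interval 8.47 to 268) or 20.5 without J7_MLKL 3.

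Lipid synthesis was reduced at most of its steps. Scd1, the desaturase that makes monounsaturated fatty acids, had 5202, 5315 and 5639 CPM in J7_CTL and 241, 294 and 262 CPM in J7_MLKL. The 3 knockout libraries lay close together, 20.4-fold below the controls (log2 fold change -4.24, SE 0.13, edgeR adjusted p = 5.31e-06). Fasn, the fatty acid synthase, had 1502, 1410.2 and 1456 CPM and 359.98, 408 and 333 CPM, 3.99-fold lower. Acss2, which activates acetate, fell 6.22-fold. Of 17 tested fatty acid synthesis genes 16 fell and none rose, and the median was -1.52. Acacb was the exception with 42.3, 42.9 and 45.05 CPM in J7_CTL and 47.2, 41.6 and 34.9 CPM in J7_MLKL (edgeR adjusted p = 0.827), a gene named here after its values were seen.

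In triglyceride synthesis and glyceroneogenesis all 14 tested genes of 17 fell, with a median of -2.05. Dgat2, which adds the last fatty acid, had 373, 354 and 363 CPM in J7_CTL and 21.6, 26.6 and 47.3 CPM in J7_MLKL, 11.3-fold lower. Pck1, the kinase that starts glyceroneogenesis, had 16.5, 11.2 and 18.3 CPM against 0.464, 0.875 and 0.757 CPM, 22.4-fold lower. Gpat3, which acylates glycerol phosphate, and Lpin3, a phosphatidate phosphatase, fell 10.1-fold and 8.84-fold. These genes cover the first, middle and last steps of the pathway.

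Of 15 genes of insulin signalling and glucose uptake 13 were tested and all 13 fell, with a median of -1.70. Slc2a4, encoding the insulin-responsive glucose transporter GLUT4, had 203, 194 and 201 CPM in J7_CTL and 6.53, 8.11 and 12.3 CPM in J7_MLKL, 22.01-fold lower (log2 fold change -4.36, SE 0.25, edgeR adjusted p = 2.2e-05). Tusc5, a protein of GLUT4 vesicles, had 116, 117 and 116 CPM against 11.6, 12.3 and 14.1 CPM. Cav1 and Cav2, which form the caveolae that crowd the adipocyte surface, fell 5.83-fold and 5.72-fold. Cav2 had 712, 722 and 721 CPM in J7_CTL and 132, 136 and 111 CPM in J7_MLKL. Cav1 had almost no spread within a group, with 2422, 2423 and 2413 CPM in J7_CTL and 417, 420.1 and 408 CPM in J7_MLKL. J7_MLKL 3 did not stand apart for Cav1.

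Mitochondrial catabolism was also lower. Of 17 tested fatty acid oxidation genes 15 fell and 1 rose. Cpt2, the inner-membrane carnitine acyltransferase, had 222, 216 and 225 CPM in J7_CTL and 49.8, 53.2 and 74.6 CPM in J7_MLKL, 3.71-fold lower. Ehhadh, a peroxisomal enzyme of the pathway, had the largest fold of the list, 15.6-fold. Cpt1a, the outer-membrane carnitine acyltransferase most familiar from liver, was the one that rose, with 41.9, 44.3 and 44.6 CPM in J7_CTL and 92.9, 84.9 and 43.4 CPM in J7_MLKL: the rise was in the first 2 knockout libraries, and J7_MLKL 3 lay within the control range. Its call was lost without any 1 of the other 5 libraries (edgeR adjusted p from 0.0572 to 0.0653). All 16 tested genes of the TCA cycle and pyruvate dehydrogenase fell (median -1.06), as did all 16 tested genes of branched-chain amino acid breakdown (median -1.48). Idh3a, a subunit of the NAD-dependent isocitrate dehydrogenase, had 414, 391 and 399 CPM in J7_CTL and 54.1, 64.8 and 74.2 CPM in J7_MLKL, 6.23-fold lower. Dbt, the E2 subunit of the branched-chain ketoacid dehydrogenase, fell 9.16-fold.

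Nuclear-encoded genes of the respiratory chain were lower too, with 16 of 17 tested members called lower, none higher and a median of -1.04. Cycs, encoding cytochrome c, had 601, 550.3 and 566 CPM in J7_CTL and 65.2, 75.5 and 139 CPM in J7_MLKL, 6.05-fold lower. Uqcrc2, a core subunit of complex III, had 296, 290.3 and 302 CPM and 83.4, 88.7 and 99.3 CPM. J7_MLKL 3 was the highest of its group for 16 of these 17 genes, against 3173 of all 7263 genes tested, and without it the fall for Cycs was 8.18-fold. Among brown and thermogenic genes 8 of 14 were tested, of which 6 fell and 1, Ppargc1a, rose. Kcnk3, a potassium channel of thermogenic fat, had 107, 104 and 105 CPM in J7_CTL and 8.92, 10.5 and 15.2 CPM in J7_MLKL. Elovl3, a cold-induced fatty acid elongase, had 453 reads over J7_CTL and 1 read over J7_MLKL, a ratio of 444 (95% counting interval 79.2 to 17563). No value of Ucp1 was used here.

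**Figure D2:**
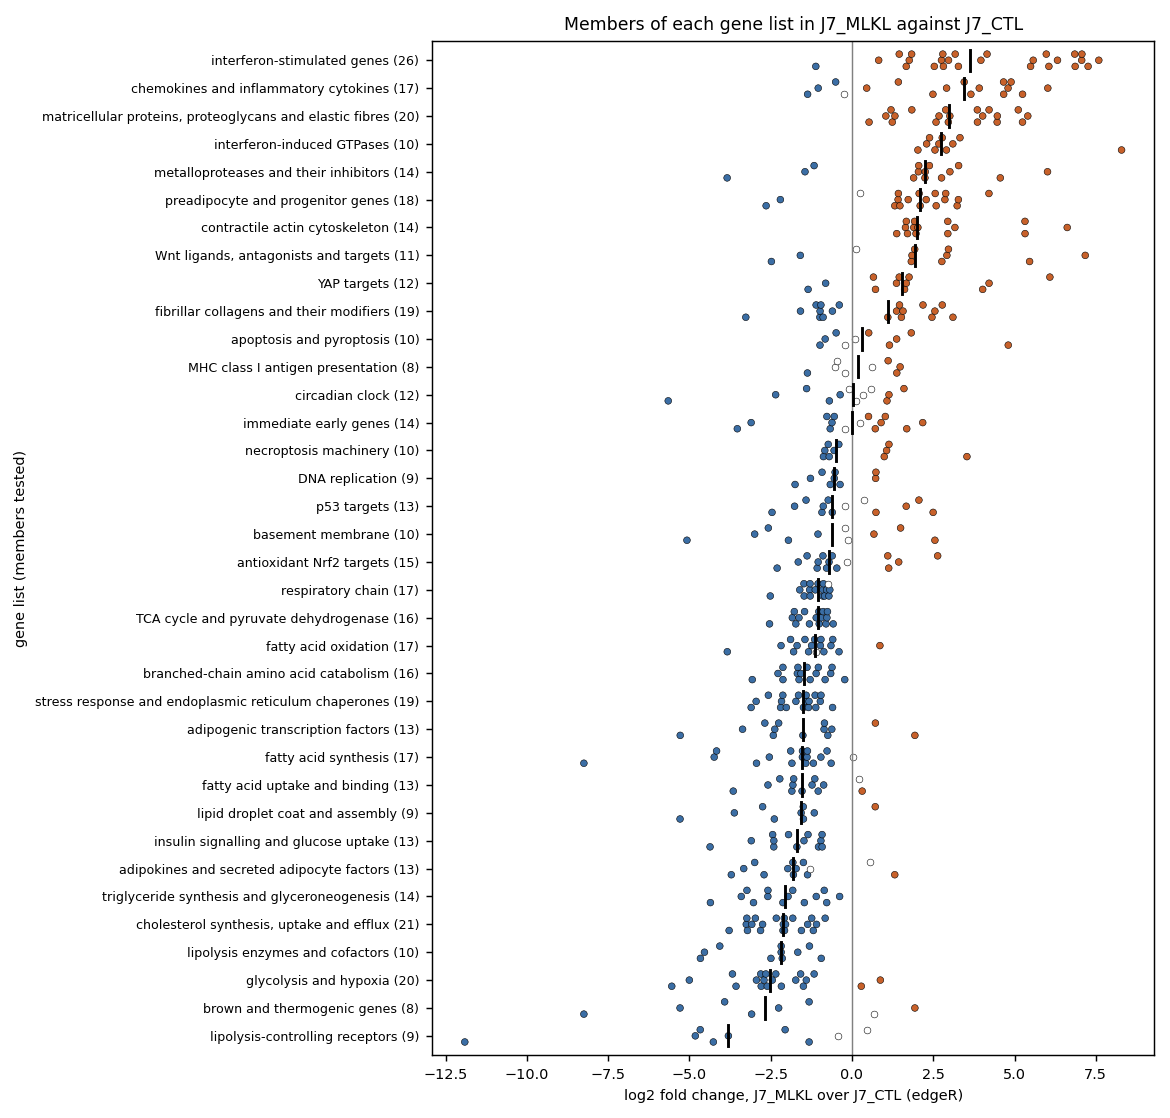
log2 fold change of J7_MLKL over J7_CTL (edgeR) for each tested member of the gene lists with at least 5 tested members, with called genes filled (orange higher, blue lower), others white, and a black bar at the median. Lipid, glucose and mitochondrial lists lie to the left, with medians from -3.80 to -1.04, and interferon, chemokine, matricellular, metalloprotease, contractile and progenitor lists to the right, up to a median of 3.62. The basement membrane list has a median of -0.63 with members on both sides.

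Glycolysis and genes induced by low oxygen were mostly lower. Of 20 tested members 18 fell and 2 rose, and the median was -2.53. Egln3, an oxygen-sensing prolyl hydroxylase that is itself induced by hypoxia-inducible factors, had 424, 455 and 421 CPM in J7_CTL and 7.77, 8.25 and 9.91 CPM in J7_MLKL, 49.9-fold lower (log2 fold change -5.54, SE 0.14, edgeR adjusted p = 4.65e-06). Bnip3, a mitophagy receptor, had 642, 689 and 632 CPM and 46.1, 51.1 and 45.8 CPM. Hk2, the hexokinase of insulin-sensitive tissue, had 403, 406 and 410.4 CPM against 34.9, 36.2 and 24.8 CPM. The 3 knockout libraries agreed closely for these genes, so that the folds with and without J7_MLKL 3 were 49.9 and 54.2 for Egln3, and 12.8 and 11.5 for Hk2. Ero1l, an oxidase of the endoplasmic reticulum, fell 34.8-fold. The 2 that rose were Adm, encoding adrenomedullin, 1.71-fold, and Pfkm, the muscle phosphofructokinase, 1.14-fold, the latter a call lost with total reads only (edgeR adjusted p = 0.112), with the authors' size factors (0.0984), with DESeq2 (0.106) and without J7_CTL 1, 2 or 3 (0.0856 to 0.148).

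The core of the hypoxia response element, ACGTG (searched on both strands, so also as CACGT), was present in the promoter windows of 11 of the 16 lower members of this list that had a RefSeq promoter (68.8%), against 21.8% of 27025 genes with such windows of 250 bases before and 50 after the start. The match is a description of these letters only. The window of Egln3 is shown because the gene had the largest fall of the list. It lies at chr12:54203825-54204124, minus strand of GRCm38.p6 (RefSeq), 5′ to 3′ on the strand of the gene, with the match in capitals.
Egln3: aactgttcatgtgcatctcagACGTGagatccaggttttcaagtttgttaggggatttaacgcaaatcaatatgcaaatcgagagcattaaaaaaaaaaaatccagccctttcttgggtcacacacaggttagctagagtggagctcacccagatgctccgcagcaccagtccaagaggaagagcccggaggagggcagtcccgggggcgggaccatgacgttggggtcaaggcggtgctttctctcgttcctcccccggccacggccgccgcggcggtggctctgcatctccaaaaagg

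Cholesterol synthesis, uptake and efflux genes were lower without exception among those tested: 21 of 22 were tested and all 21 fell, with a median of -2.11. Hmgcs1, which makes the precursor of mevalonate and was named for its promoter match, had 450.1, 438 and 424 CPM in J7_CTL and 55.9, 57.9 and 60.1 CPM in J7_MLKL, 7.53-fold lower. Abcg1, a sterol exporter and target of the oxysterol receptors, had the largest fall, from 121, 114 and 121 CPM to 7.38, 7.60 and 9.15 CPM, 14.7-fold. Insig1, which retains the sterol sensor in the endoplasmic reticulum, and Idi1, an isomerase of the mevalonate pathway, fell 10.3-fold and 10.2-fold. Export, synthesis and its feedback regulator were therefore all lower in these libraries.

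A sterol response element spelled TCACNCCAC (both strands) was found in 1 of the 14 lower members with a RefSeq promoter (7.14%), Hmgcs1, and in 1.44% of all genes. It is shown as the only match of the list, at chr13:119690101-119690400, plus strand of GRCm38.p6, with the match in capitals.
Hmgcs1: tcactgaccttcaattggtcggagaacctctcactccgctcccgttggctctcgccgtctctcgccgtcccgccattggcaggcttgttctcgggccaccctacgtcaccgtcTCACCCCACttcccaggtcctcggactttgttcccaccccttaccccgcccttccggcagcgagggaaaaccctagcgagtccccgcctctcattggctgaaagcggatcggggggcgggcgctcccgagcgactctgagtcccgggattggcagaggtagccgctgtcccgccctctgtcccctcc

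Genes of preadipocytes and their progenitors were higher. Pdgfra, the receptor that marks adipose progenitors, had 125, 131 and 132 CPM in J7_CTL and 1426, 1452 and 614 CPM in J7_MLKL. J7_MLKL 3 held less than its partners but several times the controls, and the rise was 8.84-fold with it and 11.1-fold without it (log2 fold change with it 3.27, SE 0.34, edgeR adjusted p = 0.000193). Thy1, the surface glycoprotein CD90, had 24.7, 24.9 and 22.9 CPM in J7_CTL and 53.2, 50.3 and 77.7 CPM in J7_MLKL, 2.53-fold higher, although both lay under the undifferentiated means of 261 ± 11.3 CPM in J0_CTL and 152 ± 24.5 CPM in J0_MLKL (SD, n = 3). Of 18 tested members of 23, 15 rose and 2 fell, with a median of 2.08. Pi16, a marker of early fascial progenitors, had 0.456, 0.365 and 1.04 CPM against 8.89, 8.52 and 15.3 CPM. Snai2, a mesenchymal zinc-finger factor, rose 8.76-fold, and Pdgfrb, the mural and progenitor receptor, 6.84-fold. The 2 that fell were Cd55, a complement regulator of progenitors, 6.74-fold, and Nt5e, the ectonucleotidase CD73, 4.99-fold. J7_MLKL 3 was the lowest of its group for 11 of the 18, against 3390 of all 7263 genes tested (46.7%).

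Markers of other cell types were tested in part, and their levels differed by list. For macrophages 2 of 9 markers were tested and both rose: Cd14, a lipopolysaccharide co-receptor that fibroblasts also express, had 9.36, 12.3 and 10.4 CPM in J7_CTL and 32.95, 35.3 and 57.2 CPM in J7_MLKL, and Csf1r, the receptor for CSF1, had 0.249, 0.325 and 0.261 CPM and 0.618, 0.829 and 0.832 CPM. The summed level of the macrophage list was 9.61 to 12.7 CPM in J7_CTL and 33.6 to 58.0 CPM in J7_MLKL, and no J7_MLKL value of Lyz2, Cd68, Adgre1 or Ptprc was used here. The endothelial list had 1 tested gene of 8, with sums of 1.62 to 2.07 CPM in J7_CTL and 0.618 to 0.921 CPM in J7_MLKL. Of the skeletal muscle list 3 of 12 were tested (1 rose, 1 fell, sums of 39.0 to 41.4 CPM and 18.7 to 39.9 CPM). Of the osteoblast list 5 of 8 were tested (3 rose, 2 fell, sums of 70.9 to 78.4 CPM and 130 to 139 CPM), among them the bone factor gene Runx2, which rose 4.63-fold, and Alpl, alkaline phosphatase, which fell from 31.2, 28.9 and 28.3 CPM to 0.773, 0.691 and 1.17 CPM. Of the chondrocyte list 3 of 8 were tested (2 rose, 1 fell, sums of 140 to 154 CPM and 186 to 206 CPM). The 4 tested epithelial genes of 8 were all keratins and all fell: Krt18, a simple-epithelium keratin, had 18.5, 19.6 and 16.9 CPM in J7_CTL and 0.232, 0.230 and 0.757 CPM in J7_MLKL, and the summed list went from 47.9 to 54.6 CPM to 1.11 to 3.44 CPM. Their part in the other results was not tested.

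Of 19 tested fibrillar collagens and enzymes that modify them 10 were higher and 9 lower, near the background of 48.5% and 46.4% over all genes tested. Col1a1, the α1 chain of type I collagen, had 723, 726 and 718 CPM in J7_CTL and 3775, 3605 and 3717 CPM in J7_MLKL, 5.13-fold higher (log2 fold change 2.46, SE 0.10, edgeR adjusted p = 7.12e-06). The undifferentiated controls had 3667 ± 93.6 CPM (SD, n = 3). Lox, which crosslinks collagen and elastin, had 172, 174 and 167 CPM against 1647, 1616 and 850.1 CPM, 7.92-fold higher. Pcolce, an enhancer of procollagen cleavage, rose 5.53-fold. In the other direction, Loxl2, a lysyl oxidase relative, fell 10.4-fold, and Col5a3, a minor fibrillar chain, and the hydroxylase P4ha1 fell 3.22-fold and 2.12-fold.

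Matricellular proteins, proteoglycans and elastic fibre genes rose together, with all 20 tested members of 23 higher and a median of 2.99. Ogn, encoding the proteoglycan osteoglycin, had 5.68, 4.79 and 4.997 CPM in J7_CTL and 224, 226 and 161 CPM in J7_MLKL, 39.3-fold higher. Fmod, fibromodulin, had 1.62, 1.79 and 1.16 CPM and 57.4, 46.6 and 56.8 CPM. Fbln1, an elastic fibre component, had 1.66, 1.79 and 2.65 CPM and 62.4, 53.02 and 82.01 CPM. For each of these 3 genes the lowest J7_MLKL library lay more than 10-fold above the highest control library. Thbs1, the activator of latent TGF-β thrombospondin 1, rose 20.4-fold with J7_MLKL 3 and 25.5-fold without it, its value being 595, 559 and 253 CPM in the 3 libraries against 25.3, 22.04 and 21.00 CPM in the controls.

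In the basement membrane list 5 of 10 tested genes fell and 3 rose, against 46.4% and 48.5% of all genes tested. Col15a1, a collagen of the basement membrane zone around adipocytes, had 291, 293 and 291 CPM in J7_CTL and 7.38, 9.86 and 6.96 CPM in J7_MLKL, 36.7-fold lower. Nid2, nidogen 2, and Col18a1, the source of endostatin, fell 8.69-fold and 6.37-fold, while Lamb2, a laminin β chain, rose 5.44-fold. For 9 of the 10, J7_MLKL 3 was the lowest of its group. Of 14 tested metalloproteases and inhibitors 11 rose and 3 fell. Timp2, an inhibitor that also takes part in activating MMP2, had 119, 113 and 119 CPM in J7_CTL and 2772, 2586 and 2352 CPM in J7_MLKL, 21.95-fold higher (log2 fold change 4.56, SE 0.12, edgeR adjusted p = 4.65e-06). Mmp9, a gelatinase, had 0.414, 0.0406 and 0 CPM against 10.8, 9.67 and 6.96 CPM. Adamts1, a proteoglycan-cleaving protease, rose 7.40-fold, and Timp3, an inhibitor bound to the matrix, fell 16.2-fold.

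All 14 tested genes of the contractile actin cytoskeleton rose, with a median of 2.00. Acta2, α-smooth muscle actin, had 22.3, 20.7 and 17.6 CPM in J7_CTL and 595, 528 and 1127 CPM in J7_MLKL. J7_MLKL 3 held a higher level than its partners, and the rise was 38.1-fold with it and 28.1-fold without it (log2 fold change with it 5.32, SE 0.36, edgeR adjusted p = 3.67e-05). Cnn2, the actin-binding calponin 2, had 17.7, 15.6 and 17.5 CPM and 525, 466 and 902 CPM. Myl9, a regulatory myosin light chain, rose from 0.0829, 0.0812 and 0.186 CPM to 6.61, 7.37 and 19.9 CPM. Tpm1, a tropomyosin, rose 7.25-fold. For these 4 genes J7_MLKL 3 was the highest library, whereas for Mylk, the kinase that activates myosin and a gene named after its values were seen, it was the lowest at 1168, 1237 and 303 CPM in the 3 J7_MLKL libraries against 122, 125 and 129.9 CPM in the controls.

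Genes of the YAP list, which follow the mechanosensitive coactivators YAP and TAZ, rose in 10 of 12 tested cases and fell in 2. Cyr61 had 15.2, 13.9 and 15.3 CPM in J7_CTL and 223, 235 and 213 CPM in J7_MLKL, 15.04-fold higher, and Ctgf rose 17.7-fold at low levels of 2.59, 3.22 and 3.33 CPM in J7_MLKL. Both encode secreted matricellular proteins, and both also stand in the matricellular list. Ankrd1, a nuclear ankyrin-repeat protein, had 2 reads over J7_CTL and 151 reads over J7_MLKL, a ratio of 77.1 (95% counting interval 20.97 to 642). Tead4, a DNA-binding partner of YAP, was one of the 2 that fell, 2.76-fold. For 10 of the 12 genes the lowest of the group was J7_MLKL 3.

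The core letters bound by TEAD factors, GGAATG (both strands), were found in the promoter windows of 11 of the 21 higher contractile and YAP-list genes with a RefSeq promoter (52.4%), against 16.6% of all genes. The window of Ankrd1 is shown because it holds 2 matches, in capitals, and the gene had the largest fold of the YAP list. It lies at chr19:36119795-36120094, minus strand of GRCm38.p6.
Ankrd1: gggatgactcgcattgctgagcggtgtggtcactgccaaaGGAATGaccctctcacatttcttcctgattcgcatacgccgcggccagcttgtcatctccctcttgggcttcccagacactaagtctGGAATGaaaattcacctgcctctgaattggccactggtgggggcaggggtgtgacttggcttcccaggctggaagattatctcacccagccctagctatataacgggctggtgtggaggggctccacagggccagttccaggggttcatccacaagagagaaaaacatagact

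Wnt ligands, antagonists and targets were mostly higher, with 8 of 11 tested members up, 2 down and a median of 1.93. Wnt6, a ligand that restrains adipogenesis, had 0.0414, 0.162 and 0 CPM in J7_CTL and 7.69, 6.82 and 14.2 CPM in J7_MLKL. Wnt10b, another inhibitory ligand, had 2 reads over J7_CTL and 95 over J7_MLKL, a ratio of 48.5 (95% counting interval 13.1 to 406). Sfrp2, a secreted Wnt-binding protein, rose 7.34-fold, and Tcf7, a nuclear effector of the pathway, fell 6.20-fold at under 1 CPM in both groups.

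Interferon-stimulated genes made up the list with the highest median, 3.62: 26 of 31 were tested, 25 rose and 1 fell. Ifit1 (chr19:34640871-34650009, mm10), which binds foreign 5′ ends of RNA, had 0.414, 0.284 and 0.261 CPM in J7_CTL and 31.8, 41.3 and 31.3 CPM in J7_MLKL. All J7_MLKL libraries lay far above the controls, 108-fold (log2 fold change 6.85, SE 0.24, edgeR adjusted p = 5.44e-06). Oasl2, an antiviral 2′-5′-oligoadenylate synthetase-like protein, had 0.497, 0.203 and 0.373 CPM and 38.3, 26.9 and 52.6 CPM, 112-fold higher. Mx1, an antiviral GTPase, had 0.0829, 0.0812 and 0.0373 CPM and 6.07, 16.6 and 8.02 CPM. Rsad2, encoding viperin, had 1 read over J7_CTL and 162 over J7_MLKL, a ratio of 165 (95% counting interval 29.3 to 6573), and Oas1g had no read in J7_CTL and 0.695, 0.783 and 1.29 CPM in J7_MLKL, at least 23.5-fold higher. Setting Oas1g at that bound did not move the median of the list. The one member that fell was Ifih1, encoding the RNA sensor MDA5, with 5.06, 6.01 and 6.56 CPM in J7_CTL and 2.59, 3.13 and 1.89 CPM in J7_MLKL. J7_MLKL 3 was the highest of its group for 16 of the 26 genes, and the counts of 25 higher and 1 lower were the same without it.

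The undifferentiated cells had these transcripts too. Ifit1 had 37.2, 30.4 and 39.1 CPM in J0_CTL and 7.33, 7.26 and 7.49 CPM in J0_MLKL, so before differentiation the MLKL cells were the lower ones. Oasl2 had 29.99 ± 1.90 CPM in J0_CTL and 6.10 ± 0.925 CPM in J0_MLKL (SD, n = 3). Between J0 and J7 the level in the control cells thus dropped to under 1 CPM for both genes while the level in the MLKL cells was higher at J7 than at J0. In the differentiated RIPK3 libraries the values were 0.417, 0.347 and 0.529 CPM for Ifit1 and 0.208, 0.0990 and 0.151 CPM for Oasl2, all under 1 CPM like the controls. For all 23 interferon-stimulated genes with listed counts in all 4 groups and enough reads, the interaction of line and differentiation was called higher. Their median was -1.13 at J0 and 3.27 at J7. Across all 2851 genes with at least 10 reads in each J0 group, 41% were called higher and 27.3% lower in that test, with medians of -0.02 at J0 and 0.49 at J7.

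**Figure D3:**
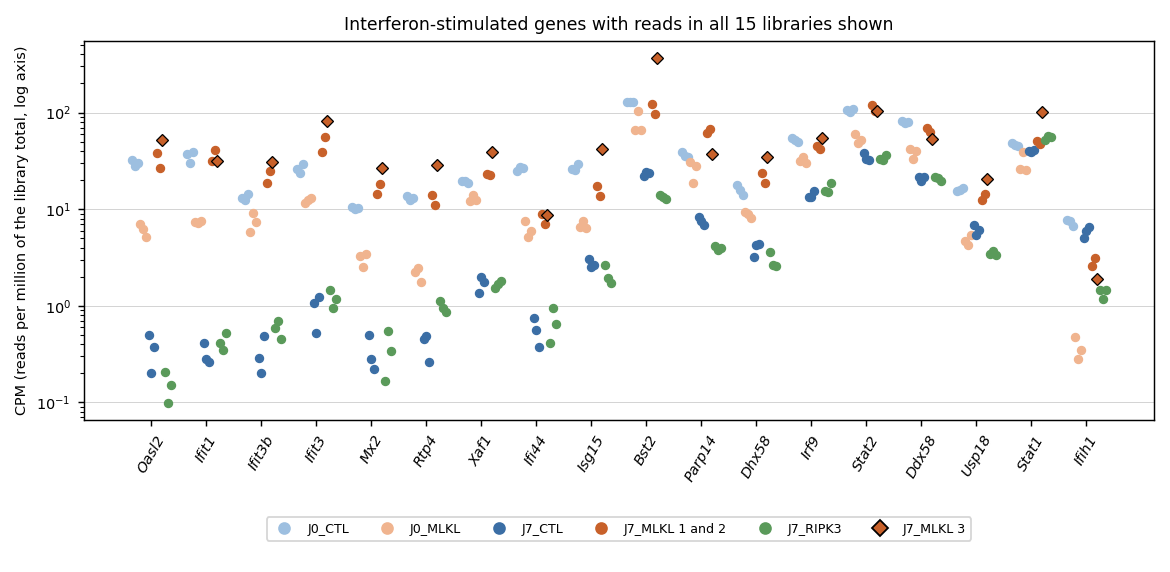
CPM (log axis) in each library of J0_CTL, J0_MLKL, J7_CTL, J7_MLKL and J7_RIPK3 for the interferon-stimulated genes with reads in all 15 libraries, ordered by the fold change at J7, with J7_MLKL 3 as outlined diamonds. For Ifit1, J7_MLKL at 31.3 to 41.3 CPM lies beside J0_CTL and above J0_MLKL, J7_CTL and J7_RIPK3, while Ifih1 at the right lies below J7_CTL.

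The interferon-stimulated response element, spelled GAAA, any 2 bases, GAAA (both strands), was present in the promoter windows of 10 of the 17 higher genes of the list that had a RefSeq promoter (58.8%), against 3.99% of all genes. The 10 genes were Bst2, Ddx58, Ifit1, Ifit3, Ifit3b, Isg15, Oas1a, Oas1g, Rsad2 and Stat2. The windows of Oas1g and Rsad2 are shown because these genes were at or next to no reads in J7_CTL, with matches in capitals; in Oas1g 2 overlapping matches merge, and in Rsad2 the match is on the opposite strand and reads TTTC, any 2 bases, TTTC. Oas1g lies at chr5:120887564-120887863, minus strand and Rsad2 at chr12:26456403-26456702, minus strand, both in GRCm38.p6.
Oas1g: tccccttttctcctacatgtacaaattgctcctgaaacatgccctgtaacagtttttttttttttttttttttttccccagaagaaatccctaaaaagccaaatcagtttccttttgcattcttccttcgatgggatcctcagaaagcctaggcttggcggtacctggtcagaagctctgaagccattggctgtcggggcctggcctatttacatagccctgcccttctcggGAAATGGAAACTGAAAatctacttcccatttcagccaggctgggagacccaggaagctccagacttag
Rsad2: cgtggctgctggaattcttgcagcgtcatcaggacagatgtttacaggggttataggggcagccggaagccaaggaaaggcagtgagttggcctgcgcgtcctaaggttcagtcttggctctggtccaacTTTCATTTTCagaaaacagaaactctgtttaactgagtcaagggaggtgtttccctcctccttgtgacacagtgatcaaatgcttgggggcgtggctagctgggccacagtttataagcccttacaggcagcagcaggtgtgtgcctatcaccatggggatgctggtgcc

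Interferon-induced GTPases, which attack the vacuoles of intracellular pathogens, rose in all 10 tested cases of 13, with a median of 2.72. Irgm1, a regulatory member of the family, had 1.28, 1.83 and 1.64 CPM in J7_CTL and 13.9, 12.4 and 18.04 CPM in J7_MLKL, 9.40-fold higher. Tgtp1 had no read in J7_CTL and 1.70, 1.38 and 1.44 CPM in J7_MLKL, at least 38.1-fold higher. Antigen presentation by MHC class I did not move as one: of 8 tested genes 3 rose, 1 fell and 4 were not called. B2m, the light chain of MHC class I, had 294, 313 and 299 CPM in J7_CTL and 630.1, 576 and 1145 CPM in J7_MLKL, 2.64-fold higher. Nlrc5, the transactivator of MHC class I genes, had 22.4, 22.3 and 22.6 CPM and 6.95, 11.1 and 6.20 CPM, 2.84-fold lower. In 7 of the 8 genes J7_MLKL 3 was the highest of its group, and without it 4 genes rose and 4 fell.

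Chemokines and inflammatory cytokines were higher in 13 of 17 tested cases and lower in 3, with a median of 3.45. Ccl2, which attracts monocytes, had 0.870, 0.731 and 0.746 CPM in J7_CTL and 24.2, 21.1 and 37.9 CPM in J7_MLKL, 36.1-fold higher. Cxcl5, which attracts neutrophils, had 0.622, 0.406 and 0.559 CPM and 15.8, 14.2 and 14.3 CPM, 27.97-fold higher. Ccl7 rose 26.6-fold. These rises were present in each J7_MLKL library. Ccl5, a chemokine for T cells, had 2 reads over J7_CTL and 145 over J7_MLKL, a ratio of 74.02 (95% counting interval 20.1 to 617), or 35.7 without J7_MLKL 3, and Il6, encoding interleukin 6, 2 and 55 reads, a ratio of 28.1 (95% counting interval 7.41 to 238). Tnfaip3, a brake on NF-κB, fell 2.22-fold and C3, complement component 3, 1.54-fold. Ptgs2, the inducible cyclooxygenase, fell 2.79-fold (edgeR adjusted p = 0.0441), a call lost without J7_CTL 1, 2 or 3 or J7_MLKL 2 (0.068 to 0.101).

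Of 24 stress and endoplasmic reticulum chaperone genes 19 were tested and all 19 fell, with a median of -1.49. The 5 untested members had J7_CTL counts too, and their difference is not known here. Atf3, a stress-induced transcription factor, had 22.5, 25.4 and 23.7 CPM in J7_CTL and 2.20, 2.40 and 3.14 CPM in J7_MLKL, 9.20-fold lower. Trib3, a pseudokinase of the integrated stress response, had 199, 208 and 204 CPM and 21.6, 16.1 and 35.9 CPM. Hspa5, the chaperone BiP, had 2765, 2834 and 2982 CPM and 569, 553 and 656 CPM, 4.81-fold lower. In 18 of the 19, J7_MLKL 3 held the highest level of its group. Of 15 tested Nrf2 targets 10 fell and 4 rose, and the members that fell most were enzymes of the pentose phosphate pathway, which supplies NADPH: Taldo1 5.18-fold (8.08-fold without J7_MLKL 3), Tkt 3.32-fold and G6pdx 2.79-fold. Gsta4, a glutathione transferase, rose 5.90-fold (3.92-fold without J7_MLKL 3).

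Cell death and cell cycle lists were mixed, as were all genes tested at 48.5% higher and 46.4% lower. Of 10 tested apoptosis and pyroptosis genes 5 rose and 3 fell. Gsdmd, the pore-forming protein of pyroptosis, had 0.331, 0.244 and 0.373 CPM in J7_CTL and 7.07, 6.91 and 11.1 CPM in J7_MLKL, 26.7-fold higher, while J0_CTL and J0_MLKL had 4.25 ± 0.785 CPM and 11.5 ± 1.35 CPM (SD, n = 3). Cdkn1a, the cyclin-dependent kinase inhibitor p21, had 255, 256 and 252 CPM in J7_CTL and 63.5, 54.4 and 91.1 CPM in J7_MLKL, 3.60-fold lower (log2 fold change -1.77, SE 0.20, edgeR adjusted p = 0.000273). Its list of 13 tested p53 targets had 7 lower and 4 higher members. Mdm2, the ubiquitin ligase that degrades p53, was among the higher ones with 721, 745 and 743 CPM and 2406, 2516 and 1613 CPM. Only 2 of 20 mitotic genes were tested, with Plk1, a mitotic kinase, 1.81-fold higher, a call lost without J7_CTL 1, 2 or 3 (edgeR adjusted p from 0.06 to 0.071). No J7_MLKL value of Mki67 was used here. Of 9 DNA replication genes 7 fell, led by the S-phase cyclin gene Ccne1 at 3.58-fold, and 2 rose.

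Of 14 tested immediate early genes 6 were higher and 6 lower, near the background of 48.5% and 46.4%. Fosl1, the AP-1 subunit FRA1, had 93.2, 117 and 101 CPM in J7_CTL and 7.84, 8.71 and 8.59 CPM in J7_MLKL, 12.4-fold lower, whereas Egr3, a zinc-finger factor, rose 4.13-fold. Of 12 clock genes 3 were higher and 5 lower, and without J7_MLKL 3 the counts were 5 and 5. Arntl, encoding the core activator BMAL1, had 26.9, 29.6 and 26.3 CPM and 4.71, 6.63 and 3.86 CPM, 5.55-fold lower, and Tef, a clock output factor, rose 1.95-fold.

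**Figure D4:**
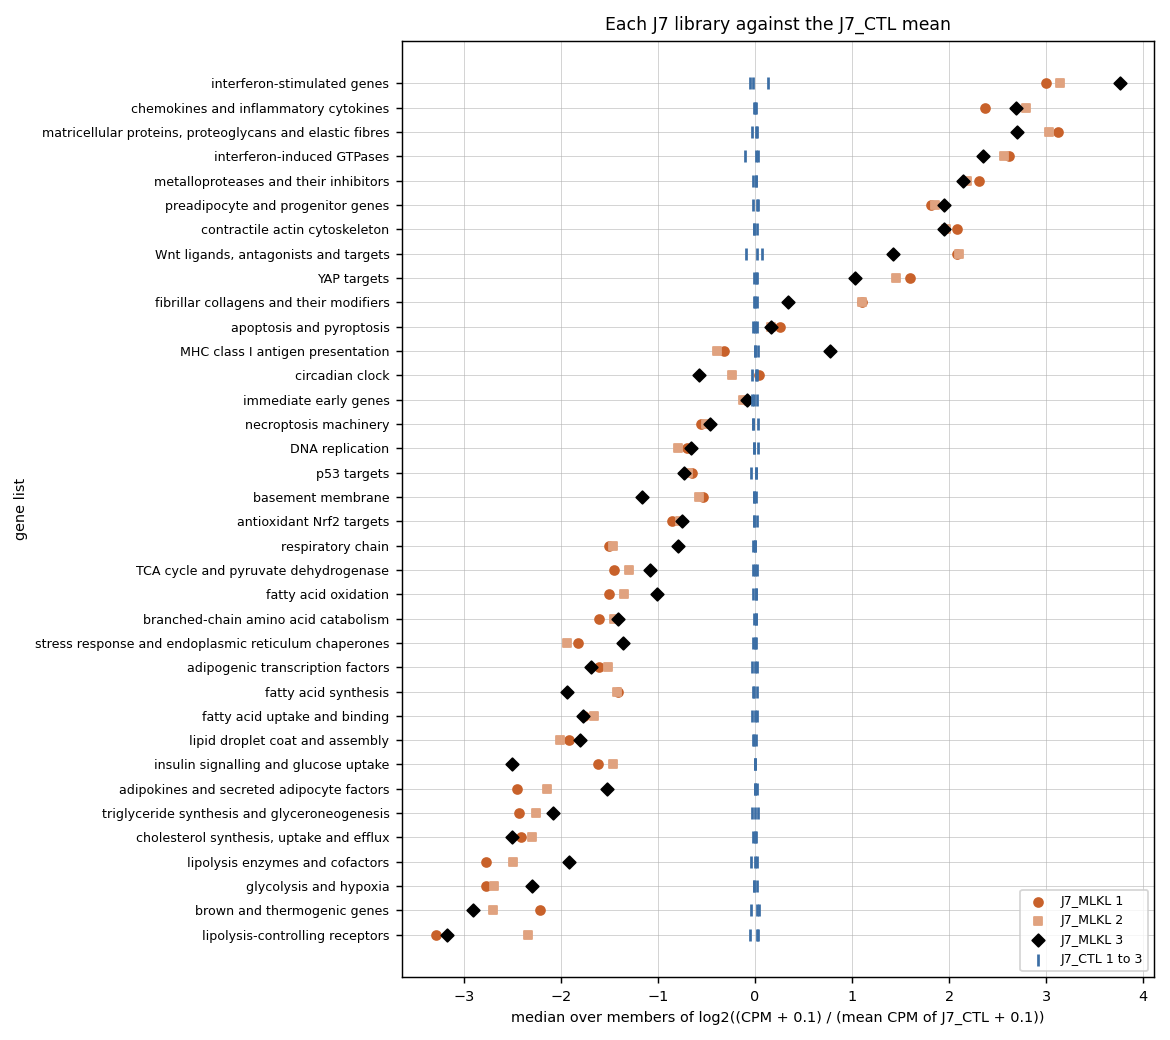
For the lists with at least 5 tested members, without the markers of other cell types, the median over tested members of log2((CPM + 0.1) / (mean J7_CTL CPM + 0.1)) in each J7_MLKL library and, as blue ticks, each J7_CTL library. The 3 J7_MLKL libraries lie on the same side of 0 in these lists except for MHC class I and clock genes, and J7_MLKL 3 lies closer to the controls than its partners for the respiratory chain and farther from them for interferon-stimulated genes.

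Called genes were also ranked without regard to the lists, among protein-coding genes with no overlap and a mean of at least 50 reads per library in the higher group. The highest log2 fold changes belonged to Vip, Hoxc5, Zfp286, Ptprq, Fbln7, Kcnc2, Mx1, Wnt6, Rsad2 and Cmpk2. Vip, encoding vasoactive intestinal peptide, had no read in J7_CTL and 6.57, 5.85 and 9.87 CPM in J7_MLKL, at least 189.9-fold higher. Hoxc5, a homeobox factor of anterior-posterior patterning, and Zfp286, a zinc-finger gene, also had no read in J7_CTL and were at least 72.5-fold and 66.02-fold higher. Ptprq, a receptor-type phosphatase, had 0.0414, 0.203 and 0.0746 CPM in J7_CTL and 34.5, 34.5 and 9.68 CPM in J7_MLKL. Kcnc2, a voltage-gated potassium channel, had 0.0414, 0.162 and 0.224 CPM and 29.6, 33.3 and 14.3 CPM. Ptprq and Kcnc2 were also higher in the undifferentiated MLKL cells, at 17.9 ± 7.30 CPM against 1.85 ± 0.154 CPM in J0_CTL and 31.9 ± 7.96 CPM against 0.511 ± 0.246 CPM (SD, n = 3). So were the means of Hoxc5 (1.93 against 0.0269 CPM), Zfp286 (3.81 against 0.0594), Fbln7 (5.33 against 0.595), Wnt6 (11.2 against 1.87) and Vip (0.696 against 0.105). Mx1 (3.56 against 5.25 CPM) and Rsad2 (0.242 against 0.383) were lower in J0_MLKL, and Cmpk2 had no J0_MLKL counts listed.

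The lowest were Ffar4, Ghrh, Elovl3, 2610528A11Rik, Cyp2ab1, As3mt, Cdhr1, Alpi, Dmkn and Slc25a34. Ghrh, encoding growth hormone-releasing hormone, had 60.1, 78.8 and 76.04 CPM in J7_CTL and 2 reads in all over J7_MLKL, a ratio of 2659 (95% counting interval 736 to 21964). 2610528A11Rik, described in the deposited tables as the gene of the protein GPR15L, had 151, 180.5 and 167 CPM in J7_CTL and 0.386, 0.184 and 1.10 CPM in J7_MLKL. Cyp2ab1, a cytochrome P450, had 90.5, 120.2 and 102 CPM and 0.502, 0.368 and 0.340 CPM, 258-fold lower. Slc25a34, a mitochondrial carrier, fell 82.6-fold. All 10 averaged under 1 CPM in J0_CTL.

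Whether the difference between the lines changed with differentiation was tested as an interaction over 12 libraries, (J7_MLKL minus J7_CTL) minus (J0_MLKL minus J0_CTL). Of 3033 genes with counts in all 4 groups, 1184 were called higher (39%) and 797 lower (26.3%) by edgeR. Among the 2851 with at least 10 reads in each J0 group, 68.4% were called in either direction. The split depended on the scaling: DESeq2 with its own size factors called 989 higher and 1069 lower, so the balance of directions over all genes is not given weight. Pparg had 26.5 ± 0.892 CPM in J0_CTL and 20.5 ± 2.93 CPM in J0_MLKL (SD, n = 3), a log2 difference of -0.42 at J0 against -2.68 at J7, and the interaction was -2.45 (SE 0.21, edgeR adjusted p = 1.41e-06). Scd1 had 66.2 ± 2.50 CPM in J0_CTL and 58.4 ± 9.22 CPM in J0_MLKL, with an interaction of -4.20 (SE 0.16). For Pparg and Scd1 the lines thus differed less before differentiation than after it. J0_MLKL counts were listed for 4217 genes only, against 13414 in J0_CTL. The tallies by list thus cover members selected by the authors' tests, and not whole lists. All 7 lipolysis genes, all 8 triglyceride synthesis genes and all 9 cholesterol genes with counts in all 4 groups and enough reads had a lower interaction. So did 7 of 10 adipogenic factors (1 was higher), 5 of 7 adipokine genes and 6 of 8 fatty acid uptake genes, whereas none of the 2 receptors that control lipolysis was called. Lpl went further: it was higher in J0_MLKL than in J0_CTL (log2 0.78) and lower at J7 (interaction -2.76, SE 0.16).

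In the other direction, Acta2 had 175 ± 14.7 CPM in J0_CTL and 372 ± 70.6 CPM in J0_MLKL (SD, n = 3), a log2 difference of 1.04 that grew to 5.32 at J7 (interaction 4.09, SE 0.37, edgeR adjusted p = 1.92e-06). Thy1 was lower in J0_MLKL than in J0_CTL (log2 -0.83) and higher at J7 (interaction 2.07, SE 0.22). Of the matricellular list 17 of 18 genes had a higher interaction, as did 12 of 13 progenitor genes and all 7 interferon-induced GTPases, while of 8 fibrillar collagen genes 6 were higher and 2 lower. Fabp4 did not pass this test: it was already lower in J0_MLKL, at 1.26 ± 0.326 CPM against 6.05 ± 0.287 CPM in J0_CTL, and its interaction was -0.46 (SE 0.53, edgeR adjusted p = 0.463), though it passed without J7_MLKL 3 (-1.05, 0.000375). Adipoq, Retn, Cfd, Cd36, Plin1, Cidec, Adrb3, Pck1 and Slc2a4 had under 10 reads in a J0 group and are not described by the interaction.

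**Figure D5:**
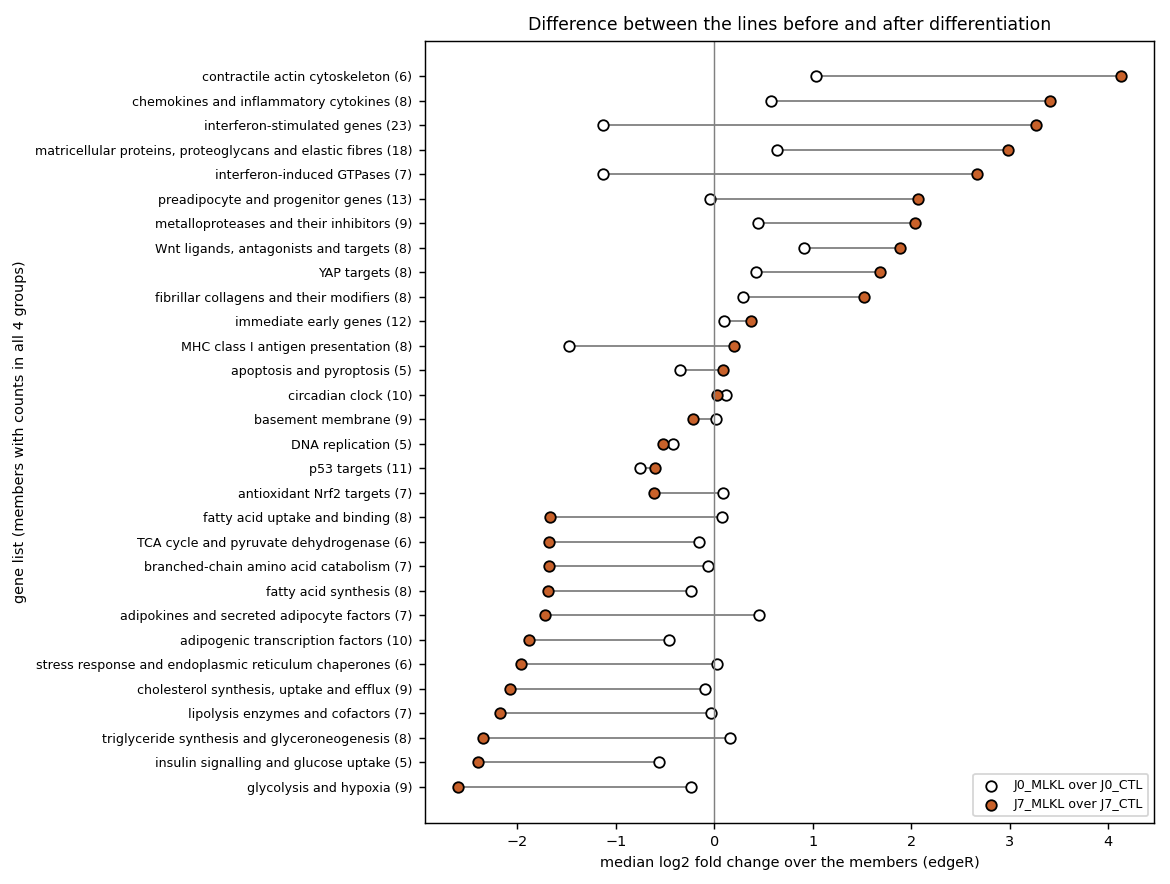
Median log2 fold change of each list with at least 5 members counted in all 4 groups, for J0_MLKL over J0_CTL (white) and J7_MLKL over J7_CTL (orange), with the number of members in parentheses. Interferon-stimulated genes move from -1.13 to 3.27 and triglyceride synthesis genes from 0.16 to -2.36, while the clock median goes from 0.12 to 0.02 with 2 of 10 members called higher and 5 lower in the interaction.

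The differentiated RIPK3 libraries share the controls with this comparison, so only levels are set side by side. Pparg had 387, 369.6 and 353 CPM in J7_RIPK3, Cebpa 393, 389 and 365 CPM and Adipoq 1843, 1860.5 and 1669 CPM. All of these were above every J7_MLKL library. Acta2 had 11.4, 14.9 and 12.9 CPM and Pdgfra 102, 104 and 99.3 CPM in J7_RIPK3, below every J7_MLKL library. Scd1 had 10384, 9303 and 9082 CPM and Pck1 114, 109 and 109 CPM, above every J7_CTL library as well.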

How the data were processed

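RNA from 3T3-L1 cells was sequenced in 18 libraries, of which the 6 J7_MLKL and J7_CTL libraries are compared here. Per the submitters' processing notes, the build was mm10, and the tools named are DESeq2, HISAT2, FastQC (0.11.9) and featureCounts (1.5.0-p3). The authors deposited tables of comparisons with raw counts per gene, normalised counts (a signal divided by size factors), FPKM values, gene length and other annotation, and the authors' log2 fold changes, p-values and adjusted p-values. Each deposited table lists only genes with an adjusted p-value under 0.05 in its comparison. Raw counts of J7MLKL and J7CTL columns were joined by gene identifier over all tables, and 88950 repeated counts held no difference. Library totals were recovered from count, FPKM and length, and CPM is the count per 1000000 reads of that total.

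The joined counts were tested with edgeR 4.0.16 (R 4.3.3): filterByExpr, TMM factors on the recovered totals, the quasi-likelihood F test, and Benjamini-Hochberg adjustment over all genes tested, called at 0.05. The SE is the log2 fold change divided by the square root of F. The interaction used the 4 J0 and J7 control and MLKL groups, 12 libraries. It is described only for genes with listed counts in all 4 groups and at least 10 reads in each J0 group. In counts simulated with 3 libraries per group over 7239 genes for J7_MLKL against J7_CTL, 22% of genes changed 1.5-fold, 90% of those changed 2-fold and 100% of those changed 4-fold or 8-fold were recovered, and 2.5% of calls were false. The simulation changed only 50 genes at each fold. It drew all genes with the same dispersion (square root 0.20) and held no outlying library. Its share of false calls is therefore not an error rate of the calls made here. The deviations of equally numbered libraries from their group means correlated at -0.088, 0.093 and 0.030, and those of unequally numbered ones at -0.114 to 0.119. With 3 libraries per group, these values cannot show whether equal numbers mark a shared culture.

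The members and gene lists were chosen with earlier results of these data known. Genes named are Mlkl and Ripk3, a set of 30 genes, the 10 highest and 10 lowest called protein-coding genes without overlap and with a mean of at least 50 reads per library in the higher group, and up to 5 called members per list and direction. Others are marked. Of the 43 lists, those for other cell types hold their markers. Folds against 0 reads use a floor of 3 reads over the group. Intervals for 1 to 3 reads are exact and cover counting error only. Promoter windows come from RefSeq (GRCm38.p6) by gene symbol. Alternatives were other scalings (total reads, the authors' size factors, DESeq2 1.42.0), other filters, a replicate block, a fold threshold, all 3 J7 groups in 1 fit, and leaving out each library. A result on 1 list member is not reported here.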

Additional observations from a re-analysis of the deposited data

Results flagged for a closer look

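For 16 genes of the fixed set, for which the interaction was listed, the difference between the lines at J7 differed from the one at J0 by edgeR's test of the interaction, on the log2 scale and adjusted over 3033 genes. In regulators and enzymes of the adipocyte the J7 difference was the lower one: Pparg by -2.45, Cebpa by -2.93, Nr1h3 by -2.77, Lpl by -2.76, Pnpla2 by -2.27, Lipe by -2.40, Scd1 by -4.20, Fasn by -1.73, Dgat2 by -2.89 and Cpt2 by -1.40. The growth inhibitor gene Cdkn1a was lower by -0.99. In the other direction, Thy1 differed by 2.07, Col1a1 by 1.69 and Acta2 by 4.09. The largest values were those of the interferon-stimulated genes, with Ifit1 at 8.99 and Oasl2 at 9.03. Their causes were not tested.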

How the results depend on the processing

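The tables were selected by the authors on adjusted p, so counts over all genes describe that selection, and genes near 1 CPM rest on few reads. Calls of the J7 comparison numbered 3381 to 3693 higher and 3035 to 3526 lower when each library was left out, and 1053 to 1292 higher and 738 to 910 lower for the interaction. With a replicate block they were 3458 and 3322, and 1148 and 779 for the interaction. The block ended the calls of Slc27a1 (edgeR adjusted p = 0.0839), Pfkm (0.0837) and Ier2 (0.0578), and with it the interaction of Mlkl passed (0.037). Requiring an absolute log2 fold change over 1 left 2588 higher and 1748 lower genes in the J7 comparison and 881 and 503 in the interaction. The J7 median of 0.17 was 0.07 with total reads only, 0.38 with no low-count filter, 0.50 with only genes of the table of this comparison, -0.13 with a mean of at least 50 counts and -0.22 with all 3 J7 groups in 1 fit, so its sign was not stable. Of the named genes none changed direction in the J7 comparison, and 42 lost the call under some alternative, 38 under the fold threshold and 16 under another one. The interaction of Ripk3, 0.27 (adjusted p = 0.41), was -0.043 with DESeq2, and the cause was not tested.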

Other observations

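The genes in this section were looked at only after values had been seen, and are given as values. All 10 protein-coding genes of the mitochondrial genome that were tested rose, with a median log2 fold change of 1.30 and a range of 0.85 to 2.23, while 16 of 17 nuclear-encoded respiratory genes fell. Over all genes tested 48.5% were higher and 46.4% lower. Of the mitochondrial RNA genes tested that encode no protein, mt-Rnr2, mt-Tc, mt-Te and mt-Tn rose. The others, mt-Tp, mt-Ts2 and mt-Th, fell (log2 fold change -1.74, -1.60 and -1.10). The subunit gene mt-Co1 had 6695, 6437 and 6581 CPM in J7_CTL and 12138, 12323 and 8595 CPM in J7_MLKL, and mt-Cytb, cytochrome b, had 2870.3, 2730.2 and 2861 CPM and 5096, 5176 and 4877 CPM, both without overlap. Their means were also higher in J0_MLKL than in J0_CTL, at 10110 against 8007 CPM for mt-Co1 and 3651 against 3028 CPM for mt-Cytb.

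Of 16 Hox genes tested 12 rose and 3 fell, against 48.5% and 46.4% of all genes tested. Hoxd3 and Hoxd4 were called higher although their groups overlapped, and Hoxc4 and Hoxc5 had only 2 and 0 reads over J7_CTL. All 5 of the Hoxc cluster rose: Hoxc13 had a mean of 2.94 ± 0.340 CPM in J7_CTL and 26.00 ± 3.93 CPM in J7_MLKL (SD, n = 3), Hoxc9 0.130 ± 0.0523 and 5.34 ± 1.80 CPM, and Hoxc6 0.410 ± 0.0452 and 4.87 ± 1.52 CPM. The means of all 5 were also higher in J0_MLKL than in J0_CTL. They were 5.38 against 1.37 CPM for Hoxc9, 6.65 against 1.25 CPM for Hoxc6 and 2.62 against 0.0422 CPM for Hoxc4. The log2 difference between the lines was 0.43 at J0 and 3.25 at J7 for Hoxc13. It was 1.90 and 5.39 for Hoxc9, and 2.33 and 3.65 for Hoxc6. Among the genes with the largest differences in CPM, Peg10, an imprinted gene of retrotransposon origin, had 2819, 3121 and 2959 CPM in J7_CTL and 222, 232 and 97.7 CPM in J7_MLKL. Ptn, encoding the growth factor pleiotrophin, had 397, 405 and 381 CPM and 3967, 3924 and 4302 CPM. Both differed without overlap between the groups.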
